A study of Mus musculus with 36 samples.

Results

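The mouse microRNAs (miRNAs) miR-221 and miR-222 were followed through the induction of Ikaros in a pre-B cell line. Members were all miRNAs of the data whose names begin with mmu-miR-221- or mmu-miR-222-, and 4 of the 469 measured miRNAs met this rule: mmu-miR-221-5p, mmu-miR-221-3p, mmu-miR-222-5p and mmu-miR-222-3p. Each name stands for 1 arm of a hairpin, so both arms of both hairpins were measured. Small RNA was sequenced in 36 samples of B3, a mouse pre-B lymphocyte line, with 3 samples for each of 2 lines at 0, 2, 6, 12, 18 and 24 h. The Ikaros line carried an MSCV retrovirus encoding wild type Ikaros with a haemagglutinin tag, joined to ERt2, the part of the estrogen receptor that binds its hormone, and followed by an IRES and GFP. The control line carried the vector with ERt2 and without Ikaros. The ligand 4-hydroxy-tamoxifen (4-OHT) carries the fusion protein into the nucleus.

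The labels give 4-OHT at 0.5 uM for every sample of both lines, also at 0 h, although the study's methods treat 0 h as the time before the drug. Both lines derive from 1 parental cell line by retroviral transduction, so their replicates are repeated cultures and not separate animals or clones. Cultures of 0 h came from batches 4, 5 and 6 of the labels, and those of 2 h to 24 h from batches 1, 2 and 3, so that within a line, time since 0 h cannot be told apart from culture batch. Same-numbered samples of both lines at 1 time share a culture batch, so a difference between the lines at 1 time is free of it. One sequencing run held most Ikaros samples together with most controls of 0 h and 24 h, while most controls of 2 h to 18 h were in another run, and the authors corrected this statistically before deposit.

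miR-221 and miR-222 are made from neighbouring hairpins of the X chromosome. In each hairpin the 3p arm is the main product, and the 5p arm is the partner strand that is mostly degraded once the 3p arm has been loaded into Argonaute. The 3p arms share a seed, the bases through which a miRNA pairs with its targets, and are known to repress the cell cycle inhibitor Cdkn1b and the receptor Kit. In the B lineage miR-221 is known from progenitor cells and lets pre-B cells return to the bone marrow.

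The mature sequences are shown because the shared seed is what makes the 3p arms a family, while the 5p arm of the same hairpin reads differently. They were taken from RefSeq (GRCm38.p6), which matched 3 of the 4 members, and capitals mark the seed, bases 2 to 8 from the 5′ end.
mmu-miR-221-3p: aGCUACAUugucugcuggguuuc
mmu-miR-222-3p: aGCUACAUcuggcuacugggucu
mmu-miR-221-5p: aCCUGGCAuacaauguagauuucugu
The 3p arms, both of 23 bases, were identical over their first 8 bases and at 11 of 23 positions in all. Their seed occurs in 3 of 1679 mature mouse miRNA names of RefSeq, and 2 of these were among the measured miRNAs, namely the 3p arms themselves. The third, miR-1928, was not among them. No other measured miRNA with a known sequence, 391 in all with these arms, had bases 2 to 8 of miR-221-5p.

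On chromosome X (GRCm38.p6) both hairpins are read from the minus strand, Mir221 at chrX:19146294-19146388 and Mir222 at chrX:19146893-19146971, with 504 bases between them. The miR-221-3p arm spans chrX:19146307-19146329, miR-221-5p spans chrX:19146344-19146369 and miR-222-3p spans chrX:19146901-19146923. In the GENCODE vM21 annotation no other gene overlapped the span, so the pair was intergenic. The nearest gene was Gm14636, a processed transcript of the same strand 10009 bases upstream, and the nearest protein-coding genes, Tex13c3 and 4930578C19Rik, lay 332448 and 684896 bases away. The hairpins are printed with the mature arms that have a RefSeq sequence in capitals.
Mir221: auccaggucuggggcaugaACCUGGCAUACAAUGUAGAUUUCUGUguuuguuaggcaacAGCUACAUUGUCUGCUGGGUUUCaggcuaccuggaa
Mir222: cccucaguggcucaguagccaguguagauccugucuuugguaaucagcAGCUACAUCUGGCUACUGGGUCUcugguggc

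Levels are the authors' normalised log2 values, on which a difference of 1 is a doubling. Over the table they ran from 0.09 to 19.3, and sample medians ran from 3.7 to 4.15. The files give no read counts, so the depth of each sample is unknown and precision rests on the 3 replicates of a group. The identity of the cells was checked with marker miRNAs. All 5 lymphocyte markers were measured, with miR-181a-5p the second most abundant miRNA of the table (median 18.19) and miR-150-5p, which marks mature lymphocytes, at 3.95. Of 11 markers of other cell types 5 were measured, with medians of 13.33 for miR-9-5p (neural), 6.18 for miR-126a-3p (endothelial and stem cells), 4.68 for miR-200c-3p (epithelial), 1.91 for miR-223-3p (myeloid) and 1.28 for miR-375-3p (endocrine). In bulk RNA, fewer cells that express a miRNA and less of it per cell cannot be told apart.

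The 4 arms stood at very different levels. The mean over the 36 samples was 9.35 for miR-221-3p, 6.97 for miR-221-5p, 3.40 for miR-222-3p and 1.64 for miR-222-5p, which placed them 78th, 122nd, 261st and 366th of 469. In both hairpins the 3p arm was thus the higher one, and both arms of miR-221 stood above both arms of miR-222. The 3p arms have equal lengths, but how efficiently each sequence is ligated and amplified was not measured, and a level difference between miRNAs includes it.

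**Figure D1:**
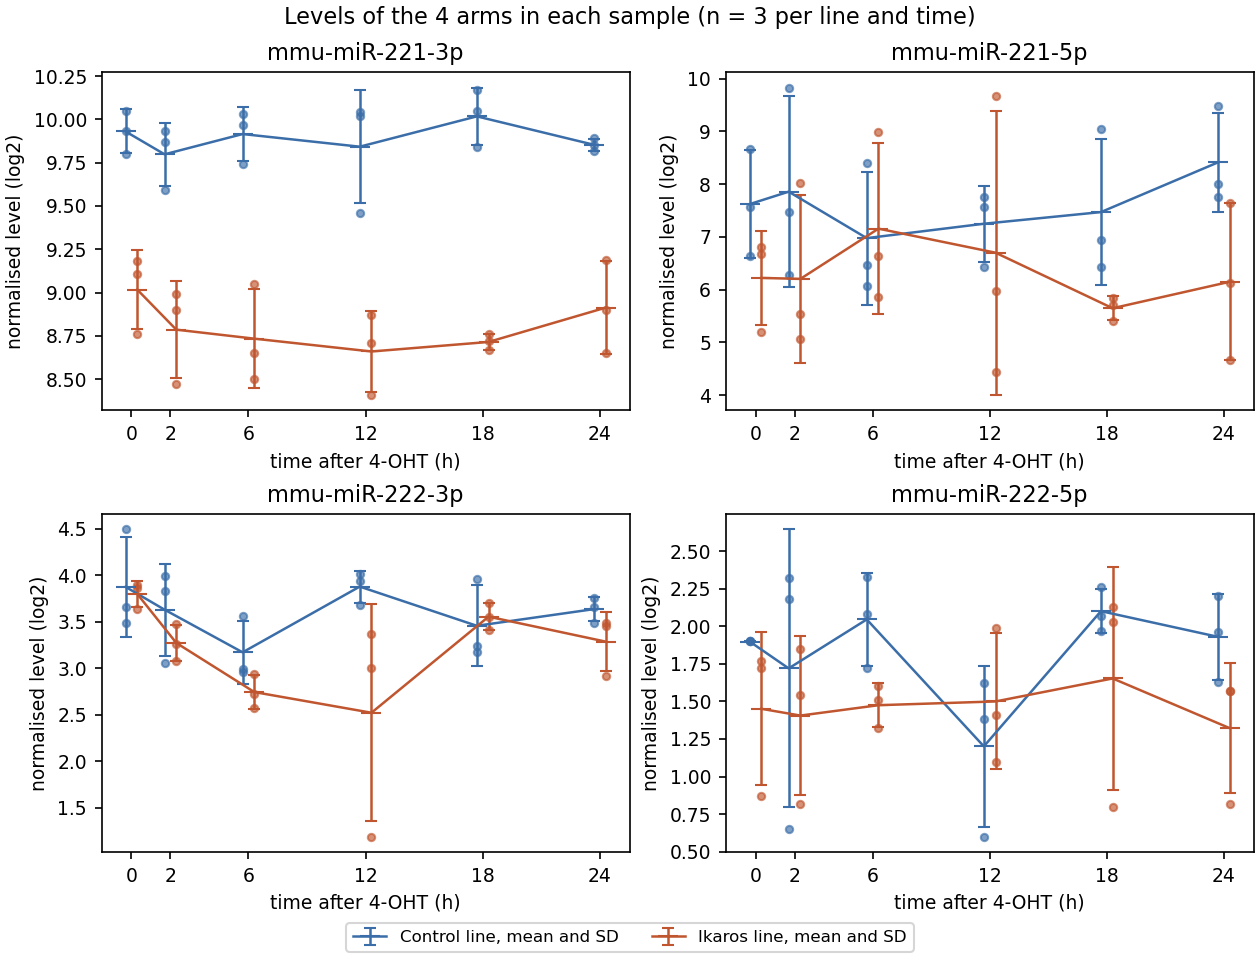
Normalised level (log2, vertical axis, a separate scale for each panel) of the 4 arms against time after 4-OHT (h); points are samples, and bars are the mean and SD of 3 samples in the control line (blue) and the Ikaros line (orange). The miR-221-3p values of the lines do not overlap at any time, whereas those of miR-221-5p spread over up to 5.24 log2 units within 1 group.

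miR-221-3p was the arm with the clearest difference between the lines, about 1 log2 unit lower in Ikaros cells at every time. In the control line, replicates 1, 2 and 4 of 0 h measured 10.05, 9.80 and 9.93, those of 2 h measured 9.87, 9.59 and 9.93, and those of 6 h measured 9.97, 9.74 and 10.03. The control samples of 12 h gave 9.46, 10.02 and 10.04, those of 18 h gave 10.17, 9.84 and 10.05, and those of 24 h gave 9.89, 9.85 and 9.82. The control level was thus flat, with a single sample of 12 h somewhat below the rest.

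In the Ikaros line miR-221-3p replicates of 0 h measured 9.11, 9.18 and 8.76, those of 2 h measured 8.47, 8.90 and 8.99, and those of 6 h measured 9.05, 8.50 and 8.65. The Ikaros samples of 12 h gave 8.41, 8.71 and 8.87, those of 18 h gave 8.67, 8.76 and 8.72, and those of 24 h gave 9.19, 8.90 and 8.65. All 18 Ikaros values, from 8.41 to 9.19, lay below all 18 control values, from 9.46 to 10.17, with 0.28 log2 units between the nearest. Such a separation was seen for 3.62% of the 469 miRNAs, 17 in all, of which 4 were lower and 13 higher in the Ikaros line. In order of level, the 6 control means stood above the 6 Ikaros means, and neighbours within a line differed by less than the pooled replicate SD of 0.213.

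The line difference of miR-221-3p (Ikaros minus control, limma, Benjamini-Hochberg adjusted over 469 miRNAs) was -0.91 at 0 h (SE 0.18, adjusted p = 0.000584) and -0.94 at 24 h (adjusted p = 0.000132). At 2, 6, 12 and 18 h it was -1.01, -1.18, -1.18 and -1.30, with limma adjusted p-values between 0.000164 and 2e-06. The mean over the 6 times was -1.09 (95% interval -1.24 to -0.94, limma adjusted p = 1.44e-13), or 0.47 of the control level (0.423 to 0.522), and it was the 12th smallest p-value of the table. It was lower in Ikaros in 18 of 18 same-numbered pairs. The share of all miRNAs past the same threshold was, in order of the 6 times, 8.53%, 11.3%, 15.1%, 21.7%, 29.9% and 39.9%, and it was 52.5% for their mean. Without replicate 4 the difference at 0 h was -0.78 and missed the threshold (limma adjusted p = 0.0608).

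The miR-221-3p difference was already present at 0 h, and no further change after it was detected. At 24 h it was -0.03 beyond that at 0 h (95% interval -0.55 to 0.50, limma adjusted p = 0.961), while 12.37% of miRNAs (58 of 469) were called by this test. Its line difference did not pass the test for change over the 6 times (limma F-test, adjusted p = 0.770, against 13.0% of miRNAs that did). Within the lines, miR-221-3p changed from 2 h to 24 h by 0.13 in Ikaros (95% interval -0.25 to 0.50, limma adjusted p = 0.641) and by 0.06 in control cells (-0.32 to 0.43, limma adjusted p = 0.961). By that contrast 28.6% of miRNAs were called in Ikaros cells against 0.0% of them in controls, where 33 miRNAs had an unadjusted p under 0.05 in limma. At 0 h and 24 h, where both lines were mostly sequenced in one run, the mean difference was -0.93 (limma adjusted p = 1.31e-06), against -1.17 (limma adjusted p = 5.12e-12) from 2 h to 18 h, where line and run cannot be told apart except through the authors' correction.

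**Figure D2:**
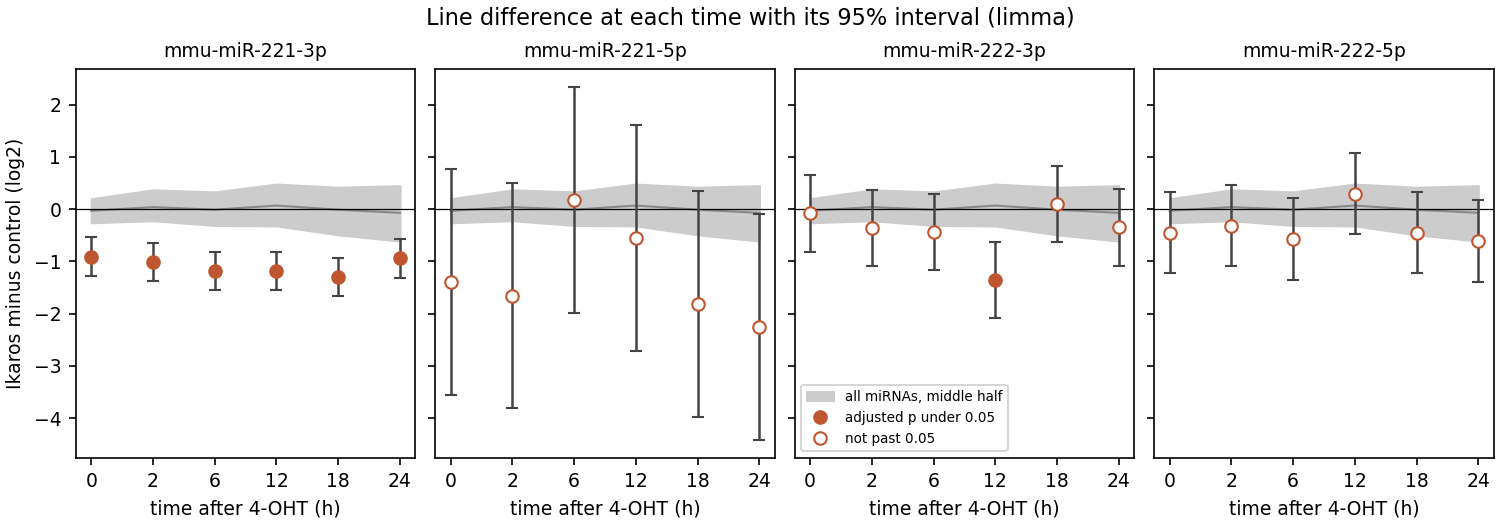
Ikaros minus control (log2) at each time (h) for each arm, with 95% intervals from limma; filled points passed an adjusted p of 0.05, and the grey band holds the middle 50% of all 469 miRNAs with their median as a line. miR-221-3p lies between -0.91 and -1.30 at all 6 times, miR-222-3p passes at 12 h, and the intervals of miR-221-5p span over 4 log2 units.

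miR-221-5p, from the same hairpin, was also lower on average in the Ikaros line but varied far more between replicates. In the control line, replicates 1, 2 and 4 of 0 h measured 8.67, 7.56 and 6.63, those of 2 h measured 7.48, 6.27 and 9.83, and those of 6 h measured 8.41, 6.06 and 6.46. The control samples of 12 h gave 6.43, 7.76 and 7.56, those of 18 h gave 9.04, 6.94 and 6.42, and those of 24 h gave 9.49, 7.75 and 8.0. Within 1 control group the lowest and highest values thus differed by 1.33 to 3.56 log2 units.

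In the Ikaros line miR-221-5p replicates of 0 h measured 6.80, 6.67 and 5.19, those of 2 h measured 5.06, 5.54 and 8.02, and those of 6 h measured 8.98, 5.86 and 6.63. The Ikaros samples of 12 h gave 4.44, 5.98 and 9.68, those of 18 h gave 5.84, 5.40 and 5.71, and those of 24 h gave 7.65, 6.13 and 4.67. The groups overlapped at 0, 2, 6 and 12 h and stood apart at 18 h and 24 h. How many of all miRNAs stood apart at a single time is not given here. Replicate 4 of the Ikaros line at 12 h was the highest Ikaros sample of this arm, while the tightest group was Ikaros at 18 h, with an SD of 0.227.

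The line differences of miR-221-5p were, in order of the 6 times, -1.40, -1.65, 0.18, -0.55, -1.82 and -2.26, each with an SE of 1.06. None passed the threshold, and the smallest limma adjusted p was 0.0891 at 24 h, with a 95% interval of -4.42 to -0.10. With same-numbered samples of a time taken as pairs, the differences at 18 h and 24 h passed (limma adjusted p = 0.0184 and 0.00376), as they also did with the 2 groups of that time alone in the fit (limma adjusted p = 0.00785 and 0.0279). The mean over the 6 times was -1.25 (95% interval -2.13 to -0.37, limma adjusted p = 0.0161), or 0.42 of the control level, and 15 of 18 pairs were lower in Ikaros. Paired, its adjusted p was 0.000165 in limma. It missed the threshold without replicate 1 (-0.98, limma adjusted p = 0.0711) and without replicate 2 (-1.31, limma adjusted p = 0.101), and was -1.50 (limma adjusted p = 0.00156) without replicate 4 of Ikaros at 12 h. From 0 h and 24 h alone it was -1.83 (limma adjusted p = 0.0611), and from 2 h to 18 h it was -0.96 (limma adjusted p = 0.142).

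The spread of miR-221-5p was among the widest of the table. Pooled over the 12 groups its SD was 1.44, the third highest of 469, against a median of 0.36, and 3 miRNAs in all were above 1. The other two were miR-19a-3p (1.81) and miR-19b-3p (1.73), which share a seed. The SD of miR-221-3p was 0.213, rank 420, so the arms of a single hairpin stood near opposite ends of the table. The SDs of miR-222-5p (0.487, rank 69) and miR-222-3p (0.453, rank 101) lay somewhat above the median.

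**Figure D3:**
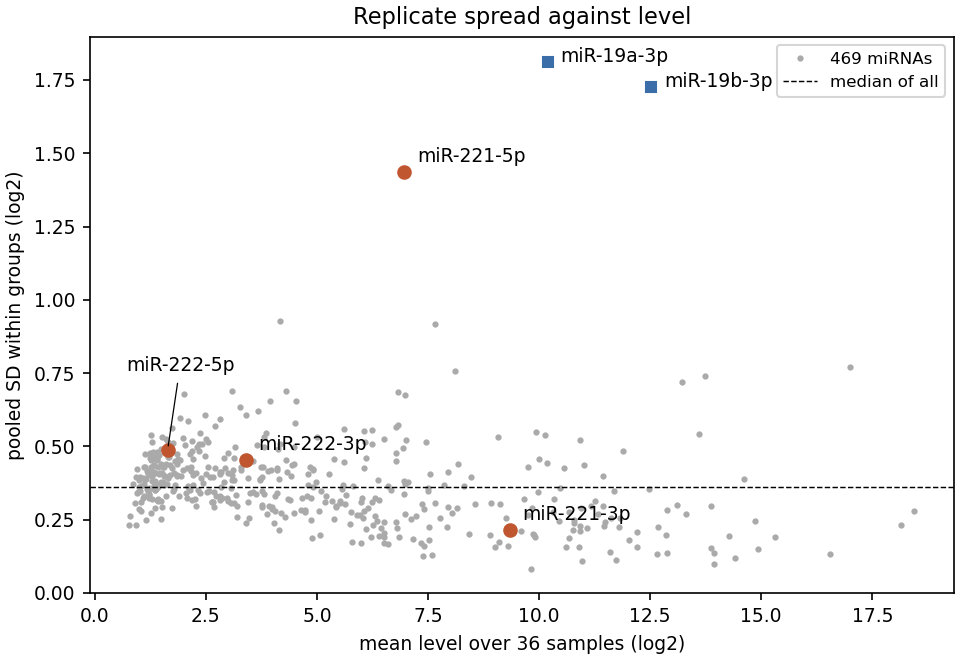
Pooled SD within the 12 groups (log2) against the mean level over 36 samples (log2) for 469 miRNAs (grey), the 4 arms (orange) and the miR-19 3p arms (blue squares), with the median SD of 0.36 dashed. miR-221-5p stands at 1.44, miR-19a-3p at 1.81 and miR-19b-3p at 1.73, while miR-221-3p stands at 0.213.

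The deviations of miR-221-5p were shared within same-numbered pairs of a time and by other miRNAs. Within culture batches 1 and 3 these deviations kept no constant direction over time. Replicate 1, batch 1 from 2 h on, deviated at 2 h by -0.38 in control and -1.15 in Ikaros. At 6 h it deviated by 1.44 and 1.82. Replicate 2, batch 2 from 2 h on, lay below its group mean in both lines at 2, 6, 18 and 24 h. At 12 h it deviated by 0.51 in control and -0.72 in Ikaros. The SE of the miR-221-5p line differences was 1.03 with culture batch as a block, 0.58 with pairs as a block and 1.06 with neither. Samples of the lines with the same number and time deviated together from their group means, with r = 0.66 over 18 pairs, against 0.31 for miR-221-3p, 0.51 for miR-222-5p and 0.00 for miR-222-3p. Over 36 samples the deviations of miR-221-5p were most like those of miR-186-5p (r = 0.96), miR-361-3p (0.95), miR-19a-3p (0.95), miR-19b-3p (0.95), miR-186-3p (0.94) and miR-322-5p (0.94), and most opposed to those of miR-128-3p (-0.89), miR-425-5p (-0.86) and miR-26b-5p (-0.86). These miRNAs were chosen after their values were seen. Of 468 other miRNAs, 26 had an r over 0.8 and 11 an r under -0.8. Among the members, r with miR-221-5p was 0.76 for miR-221-3p, -0.59 for miR-222-5p and -0.44 for miR-222-3p. All points share the authors' normalisation, and the depth of the libraries, whose part in these deviations was not tested, is unknown.

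The companions are printed to show that their seeds, in capitals, differ from that of miR-221-5p.
mmu-miR-186-5p: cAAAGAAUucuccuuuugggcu
mmu-miR-361-3p: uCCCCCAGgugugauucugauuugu
mmu-miR-19a-3p: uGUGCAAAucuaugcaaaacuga
mmu-miR-322-5p: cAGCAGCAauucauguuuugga
The mature miR-221-5p sequence holds 38.5% G and C. The median was 41.7% over the 22 miRNAs with a sequence and an r over 0.8, 47.8% over the 11 with an r under -0.8, and 50% over all 390 compared, which are 83.4% of the table with miR-221-5p counted in. Across these miRNAs, which are not independent, GC content and r had a Spearman rho of -0.12.

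**Figure D4:**
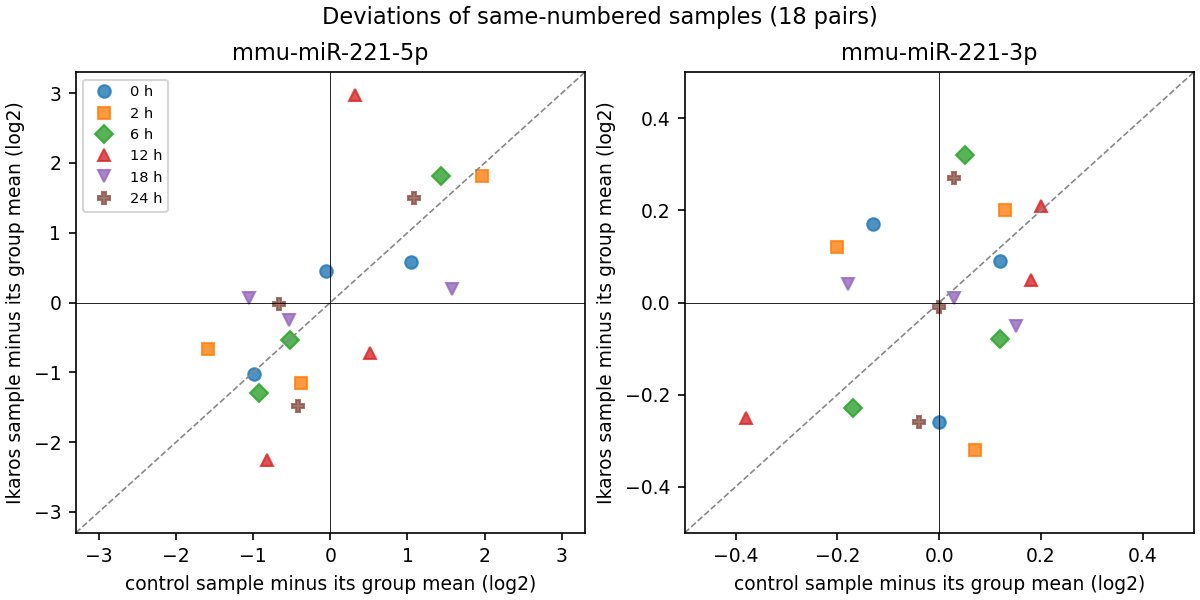
Deviation of each Ikaros sample from its group mean (log2, vertical axis) against that of the same-numbered control sample (log2, horizontal axis), 18 pairs marked by time; the dashed line marks equal deviations, and the panels have different scales. For miR-221-5p (left, r = 0.66) most pairs deviate the same way, with replicate 4 of 12 h at 2.98 in Ikaros, while miR-221-3p (right, r = 0.31) stays within 0.5 log2 units.

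miR-222-3p, which has the seed of miR-221-3p, showed a smaller line difference, which passed the threshold at 12 h and for the mean of the 6 times. In the control line, replicates 1, 2 and 4 of 0 h measured 3.48, 3.66 and 4.49, those of 2 h measured 3.06, 3.83 and 3.99, and those of 6 h measured 2.96, 2.99 and 3.56. The control samples of 12 h gave 4.01, 3.68 and 3.94, those of 18 h gave 3.96, 3.24 and 3.17, and those of 24 h gave 3.49, 3.75 and 3.66. Its control level was lowest at 6 h.

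In the Ikaros line miR-222-3p replicates of 0 h measured 3.64, 3.89 and 3.86, those of 2 h measured 3.47, 3.26 and 3.08, and those of 6 h measured 2.72, 2.57 and 2.94. The Ikaros samples of 12 h gave 3.37, 3.00 and 1.19, those of 18 h gave 3.70, 3.55 and 3.41, and those of 24 h gave 3.45, 2.92 and 3.49. The lines overlapped at 0, 2 and 18 h, while at 6, 12 and 24 h the Ikaros values were lower, by a narrow margin at 6 h and 24 h. For such a separation at a single time, the share of all miRNAs is not given here. The sample at 1.19 was the lowest of all 36, and it was the same sample in which miR-221-5p was highest among the Ikaros samples.

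The miR-222-3p line difference at 12 h was -1.35 (SE 0.36, limma adjusted p = 0.00686), and without replicate 4 of Ikaros at 12 h it was -0.69 and missed the threshold (limma adjusted p = 0.0946). It also missed without replicate 2 in any group (-1.69, limma adjusted p = 0.0579), without replicate 4 in any group (-0.66, limma adjusted p = 0.151) and with the 2 groups of 12 h alone in the fit (limma adjusted p = 0.189). The differences at the other times lay between -0.43 and 0.10, and none passed. The mean over the 6 times was -0.41 (95% interval -0.71 to -0.11, limma adjusted p = 0.019), or 0.752 of the control level, with 13 of 18 pairs lower in Ikaros. That call was lost with sample medians subtracted (-0.29, limma adjusted p = 0.104), after quantile normalization (-0.33, 0.0575), without replicate 2 (-0.45, 0.104) and without replicate 4 (-0.21, 0.172). It was kept without replicate 4 of Ikaros at 12 h alone (-0.30, limma adjusted p = 0.023). From 0 h and 24 h alone the mean was -0.21 (limma adjusted p = 0.566), and from 2 h to 18 h it was -0.51 (limma adjusted p = 0.0217).

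Over time, miR-222-3p in the Ikaros line was the member that passed the test for any change over the 6 times (limma F-test, adjusted p = 0.0445), as did 26.7% of miRNAs there, against 0.426% of them among controls. Its Ikaros means went from 3.80 ± 0.14 at 0 h to 2.74 ± 0.19 at 6 h and 2.52 ± 1.17 at 12 h, and were 3.55 ± 0.14 at 18 h (SD, n = 3). The call remained without replicate 4 of Ikaros at 12 h (limma adjusted p = 0.0431). It was lost with the replicate number as a block (limma adjusted p = 0.0557), from 2 h to 24 h alone, which leaves out the other culture batches of 0 h (0.171), with sample medians subtracted (0.0922), and without replicate 1 (0.0717), 2 (0.357) or 4 (0.0794). In the control line miR-222-3p did not pass (limma F-test, adjusted p = 0.835), and the change of its line difference over time did not either (adjusted p = 0.315).

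miR-222-5p was near the bottom of the table, and its line difference passed the threshold at no single time. In the control line its values ran from 0.60 to 2.33, and in the Ikaros line from 0.80 to 2.13. The Ikaros samples were all below the control samples at 0 h, where the control replicates lay within 0.008 of one another around 1.90, and also at 6 h and 24 h. The share of all miRNAs so separated at a single time is not given here. The line differences ran from -0.61 at 24 h to 0.30 at 12 h, with limma adjusted p-values of 0.205 or more. The mean over the 6 times was -0.35 (95% interval -0.67 to -0.03, limma adjusted p = 0.0599), with 15 of 18 pairs lower in Ikaros. With same-numbered samples taken as pairs it passed (limma adjusted p = 0.0146), as it did after quantile normalization (0.00991) and without replicate 4 (0.0479).

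For the other tests of change, miR-221-5p, miR-222-5p and miR-222-3p gave wide intervals. Their line differences at 24 h beyond 0 h were -0.86 (95% interval -3.92 to 2.19), -0.16 (-1.26 to 0.94) and -0.27 (-1.31 to 0.76), with limma adjusted p-values from 0.728 to 0.882. From 2 h to 24 h the Ikaros changes of these arms were -0.06, -0.08 and 0.02, with limma adjusted p-values of at least 0.906. Changes of this size were not detectable with 3 replicates, and for miR-221-5p the interval in the Ikaros line ran from -2.22 to 2.11.

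Whether the line difference was alike between arms was tested within samples, by the difference between a pair of arms in each sample. A permutation test swapped the lines within the 18 same-numbered pairs (two-sided, adjusted over 4 pairs of arms). It took the pairs as independent, although those of 2 h to 24 h share culture batches. The difference of miR-221-3p minus miR-222-3p was 6.29 ± 0.45 in control and 5.61 ± 0.66 in Ikaros samples (SD, n = 18). It was thus lower by 0.68 log2 units in Ikaros, in 17 of 18 pairs (permutation p = 0.0017, adjusted p = 0.0068). Over all 18 pairs miR-221-3p thus differed more between the lines than miR-222-3p. Their mean levels were 9.35 and 3.4, and whether level bears on this was not tested. The call was lost without replicate 1 (-0.52, permutation adjusted p = 0.201) and without replicate 2 (-0.69, adjusted p = 0.0879). Without replicate 4 the difference was -0.82 (permutation adjusted p = 0.00195). For the 5p arms, miR-221-5p minus miR-222-5p was 5.78 ± 1.43 in control and 4.88 ± 1.71 in Ikaros samples, a difference of -0.90 in 13 of 18 pairs (permutation p = 0.0176, adjusted p = 0.0351). That call was lost without replicate 1 (-0.69, permutation adjusted p = 0.273), without replicate 2 (-0.99, 0.103), from 2 h to 24 h alone (-0.89, 0.0837) and when lines were permuted without the pairs (0.231).

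Between the arms of 1 hairpin no unequal line difference was detected. The difference of miR-221-5p minus miR-221-3p was -2.30 ± 1.08 in control and -2.46 ± 1.30 in Ikaros samples (permutation p = 0.611, adjusted p = 0.793). For miR-222-5p minus miR-222-3p it was -1.79 ± 0.78 and -1.73 ± 0.69 (permutation p = 0.793, adjusted p = 0.793). In single samples miR-221-5p minus miR-221-3p ran from -3.98 to 0.82 in Ikaros and from -3.68 to -0.10 in control.

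Across the 18 samples of a line, 8 relations between arms were computed, with permutation p-values adjusted over them. The permutations took the 18 samples as independent, although those of 2 h to 24 h share culture batches. With group means removed, the deviations within a group also depend on each other. The arms of miR-221 rose and fell together in the Ikaros line (r = 0.63, permutation p = 0.0043, adjusted p = 0.0344; rho = 0.68, permutation p = 0.00235, adjusted p = 0.0188), and r was 0.74 without the 2 samples farthest from the median. In the control line r was 0.44 (permutation p = 0.0663, adjusted p = 0.13) and rho was 0.42 (permutation p = 0.0808, adjusted p = 0.162), with r = 0.55 without the 2 farthest samples. With group means removed, r was 0.85 in Ikaros and 0.60 in control samples, and with medians subtracted the Ikaros r was 0.60 (permutation adjusted p = 0.0686) and its rho 0.67 (permutation adjusted p = 0.0192). Samples high for one arm of miR-221 thus tended to be high for the other, over a wider range for the 5p arm.

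The 3p arms of the pair, which share a seed and neighbouring hairpins, were not correlated within a line at this n, with r = -0.06 and rho = -0.04 in control (permutation p = 0.827 and 0.888, adjusted p = 0.853 and 0.888) and r = 0.05 and rho = 0.13 in Ikaros samples (permutation p = 0.853 and 0.602, adjusted p = 0.853 and 0.688). The r without the 2 farthest samples was 0.28 and -0.15. Between the 5p arms, of which miR-222-5p was near the bottom of the table, the values were negative. In Ikaros their r was -0.54 (permutation p = 0.0207, adjusted p = 0.0827), which missed the threshold, and -0.66 without the 2 farthest. Their Ikaros rho was -0.60 (permutation p = 0.00968, adjusted p = 0.0387). In control samples their r was -0.42 (permutation p = 0.081, adjusted p = 0.13) and rho was -0.39 (permutation p = 0.111, adjusted p = 0.178), and r was -0.14 without the 2 farthest. With group means removed, r of the 5p arms was -0.63 in control (permutation adjusted p = 0.0164, -0.46 without the 2 farthest) and -0.56 in Ikaros (permutation adjusted p = 0.0294), while the Ikaros rho lost its call (permutation adjusted p = 0.0699, and 0.0706 with medians subtracted). The arms of miR-222 had r = -0.44 (permutation p = 0.069, adjusted p = 0.13) and rho = -0.57 (permutation p = 0.0152, adjusted p = 0.0405) in control and -0.54 without the 2 farthest, against r = 0.18 (permutation p = 0.504, adjusted p = 0.672) and rho = 0.18 (permutation p = 0.484, adjusted p = 0.646) in Ikaros, where r without the 2 farthest was 0.29. The control rho of these arms lost its call with group means removed (-0.21, permutation adjusted p = 0.459) and with medians subtracted (-0.50, permutation adjusted p = 0.102).

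The miRNAs most like each arm over all 36 samples were named by Pearson's r, as a description. miR-221-3p was most like miR-20b-5p (r = 0.92), miR-27a-5p (0.87), miR-363-5p (0.86), miR-19b-2-5p (0.85) and miR-106a-3p (0.84), and most opposed to miR-188-5p (-0.93), miR-28a-5p (-0.92) and miR-532-5p (-0.91). The hairpins Mir20b, Mir363, Mir19b-2 and Mir106a, from which 4 of the 5 arms most like it come, lie together on chromosome X between 52741693 and 52742567 (GRCm38.p6, minus strand) as members of the miR-106a-363 cluster. Their arms were also lower in the Ikaros line, with mean line differences of -0.85, -0.81, -1.51 and -1.02. The levels of both lines enter these values, so that a shared line difference alone gives a high r.

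miR-221-5p was most like miR-3535 (0.89), miR-186-3p (0.89), miR-142-3p (0.89), miR-98-3p (0.86) and miR-19a-3p (0.83), and most opposed to miR-26b-5p (-0.81), miR-128-3p (-0.81) and miR-1839-5p (-0.79). miR-222-3p was most like let-7i-5p (0.66), miR-664-5p (0.61), miR-296-3p (0.61), miR-23b-5p (0.58) and miR-582-3p (0.58), and most opposed to miR-5615-5p (-0.62), miR-16-5p (-0.60) and miR-125a-5p (-0.58). miR-222-5p was most like both arms of miR-1306 (0.63 and 0.62), miR-142-5p (0.60), let-7g-5p (0.59) and miR-363-3p (0.58), and most opposed to miR-30b-3p (-0.61), miR-1981-5p (-0.56) and miR-10a-5p (-0.55). The arms of the pair were not each other's nearest, with r = 0.59 between the arms of miR-221 and 0.35 between the 3p arms.

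The members are set beside other miRNAs of B cell development and of the cell cycle. Of 15 listed B-lineage miRNAs 13 were measured, and at 0 h, where miR-221-3p was already lower, 1 was higher and 0 were lower, near the 8.53% of all miRNAs called at that time. The one was miR-146a-5p, a brake on inflammatory signalling, at 1.36 (limma adjusted p = 3.07e-05). At 24 h, when 39.9% of all miRNAs were called, 0 were higher and 2 lower, miR-34a-5p, which represses Foxp1 in B cell development, at -0.90 (limma adjusted p = 0.000103) and miR-24-3p at -0.70 (limma adjusted p = 0.00763). For the mean of the 6 times, by which 52.5% of all miRNAs were called, 1 was higher and 5 were lower, and the median of the list was -0.25 against 0.03 over all miRNAs.

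Of 12 listed miRNAs with known cell cycle targets 10 were measured. At 0 h 0 were higher and 0 lower, and at 24 h 3 were higher and 4 lower, where 8.53% and 39.9% of all miRNAs were called, and the 24 h median was -0.21 against -0.07 over all miRNAs. For the mean of the 6 times 4 were higher and 4 lower, beside 52.5% called over all miRNAs, with a median of 0.03, equal to that of all miRNAs. At 24 h the 3 higher were miR-93-5p at 0.71 (limma adjusted p = 1.08e-05), miR-25-3p at 0.65 and miR-152-3p at 0.91. The 4 lower were miR-92b-3p at -0.99, miR-34a-5p at -0.90, miR-20a-5p at -0.82 and miR-24-3p at -0.70, beside -0.94 for miR-221-3p.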

How the data were processed

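The deposited table holds log2 values of 469 miRNAs in 36 samples, after normalization by the authors. Per the study's methods, the authors aligned reads with Novoalign to the mouse miRNAs of miRBase and counted them with multiBamCov (bedtools). A filter on CPM in NOISeq took out low miRNAs, GC content was adjusted with cqn, TMM scaled the samples, ComBat removed the effect of the sequencing run, and technical replicates were then averaged. Which terms ComBat used is not given in the sources used here, and GC correction and batch correction both bear on the level of a miRNA. The processing notes name mm10, the assembly of the coordinates given here. No counts were used, so depth is unknown and no detection limit was set.

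Samples were grouped by line and time from the labels, with replicate numbers 1, 2 and 4. limma 3.58.1 (R 4.3.3) was fitted on the log2 values with eBayes and a mean-variance trend, 1 mean for each of 12 groups and 24 residual degrees of freedom. P-values were two-sided and adjusted by the Benjamini-Hochberg procedure over 469 miRNAs, with a threshold of 0.05. Permutation tests used 100000 resamples (scipy 1.17.1, Python 3.11.15), and where there were fewer than this many arrangements all were used. The code was tested on simulated data.

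Pairing comes from the culture batch in the labels: same-numbered samples of both lines at 1 time share one. Their deviations from group means had r = 0.26 over all miRNAs, from 0.06 at 18 h to 0.41 at 6 h. The fit with pairs as a block and the fit without replicate 4 of Ikaros at 12 h were added after seeing the data. So were the mean line differences over 0 h and 24 h, or over 2 h to 18 h. These times were chosen by sequencing run, but the means come from the fit of all 36 samples. Other alternatives were medians subtracted, quantile normalization, a mean of at least 2, no trend, culture batch as a block, 2 groups alone, other times and each replicate left out.

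Named miRNAs were all members, those sharing a seed with a member, the 5 with the highest and 3 with the lowest r for each member, members of the lists and cell type markers. The miRNAs whose deviations were most like those of miR-221-5p lie outside this rule and were chosen after their values were seen. The members and lists were chosen with earlier results of these data known. The older name miR-142 was used for miR-142a. Sequences and positions of hairpins are from RefSeq, and neighbouring genes from GENCODE vM21.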

Additional observations from a re-analysis of the deposited data

How the results depend on the processing

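The miR-221-3p line difference kept its direction at each time and for the mean under every alternative run, and its call under all but the omission of replicate 4 at 0 h. With same-numbered pairs as a replicate block, the mean over the 6 times was -0.35 and passed for miR-222-5p. Culture batch as a replicate block changed no call of a member, the replicate number as a block ended the Ikaros call of miR-222-3p over the 6 times, and the pair block changed no other call beside those of miR-221-5p at 18 h and 24 h. The causes of the changes given here were not tested.

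The mean over the 6 times from 0 h and 24 h alone called 148 miRNAs and was -1.83 for miR-221-5p and -0.21 for miR-222-3p, and from 2 h to 18 h it was -0.96 for miR-221-5p. Quantile normalization gave -0.41 for miR-222-5p and -0.33 for miR-222-3p, and subtracting medians gave -0.29 for miR-222-3p. With each replicate left out of all groups in turn, or replicate 4 of Ikaros at 12 h alone (-1.50 for miR-221-5p), it ranged from -1.50 to -0.98 for miR-221-5p, -0.43 to -0.29 for miR-222-5p and -0.57 to -0.21 for miR-222-3p.

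With each replicate left out of all groups in turn, or replicate 4 of Ikaros at 12 h alone, counts of called miRNAs ranged from 22 to 31 at 0 h, 18 to 34 at 2 h, 22 to 41 at 6 h, 34 to 91 at 12 h, 69 to 125 at 18 h and 110 to 142 at 24 h, the lowest each time without replicate 2. They ranged from 12 to 31 for 24 h beyond 0 h, 11 to 73 for the interaction, 54 to 128 for Ikaros from 2 h to 24 h, 39 to 140 for Ikaros over 6 times and 0 to 3 for control over 6 times. With 2 groups alone the counts were, in order of the 6 times, 50, 16, 70, 18, 159 and 180, against 40, 53, 71, 102, 140 and 187 with all 12 groups. From 2 h to 24 h alone 82 miRNAs changed in Ikaros and 1 in control, and 1 in control with a mean of at least 2.

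The within-sample difference of miR-221-5p minus miR-222-5p was -0.89 from 2 h to 24 h and -0.90 with no replicate block. Left-out replicates gave ranges of -0.43 to 0.11 for miR-221-5p minus miR-221-3p, -0.22 to 0.28 for the miR-222 arms, -0.82 to -0.52 for the 3p arms and -1.03 to -0.69 for the 5p arms.

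The remaining sign changes concern differences that passed no threshold. With left-out replicates, or that 1 sample at 12 h, miR-222-3p ranged from -0.23 to 0.20 at 0 h and from -0.008 to 0.28 at 18 h, and miR-221-5p from -0.014 to 0.37 at 6 h and from -2.04 to 0.17 at 12 h. For 24 h beyond 0 h the ranges were -0.16 to 0.13 for miR-221-3p, -0.56 to 0.10 for miR-222-5p and -0.64 to 0.12 for miR-222-3p. For Ikaros from 2 h to 24 h they were -1.38 to 1.59 for miR-221-5p, -0.17 to 0.36 for miR-221-3p, -0.50 to 0.39 for miR-222-5p and -0.18 to 0.19 for miR-222-3p. For control they were -0.18 to 1.75, -0.048 to 0.14, -0.46 to 0.66 and -0.21 to 0.18 in the same order.

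With medians subtracted, miR-222-3p was 0.007 at 0 h, miR-221-3p was 0.12 for 24 h beyond 0 h, the Ikaros changes were 0.14 for miR-221-5p and 0.11 for miR-222-5p, and the control change of miR-222-3p was -0.02. With quantile normalization, miR-221-5p was -0.038 at 6 h, the Ikaros changes were 0.091 for miR-221-5p and 0.032 for miR-222-5p, and the control change of miR-222-3p was -0.042. With 0 h in place of 2 h, the Ikaros changes were -0.10 for miR-221-3p and -0.51 for miR-222-3p, and the control changes -0.077 and -0.24. The r of the 3p arms with group means removed was 0.05 in control and -0.40 in Ikaros, and 0.13 in control with medians subtracted.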
